A study of Mus musculus with 3 samples.

Results

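Transcripts of the endoplasmic reticulum (ER) stress response were examined in mouse liver through 10 genes: Hspa5, Hsp90b1, Dnajb9, Herpud1, Atf6, Ern1, Xbp1, Atf4, Ddit3 and Trib3. The genes were chosen by name for their place in the pathway, but with earlier results of these data known. They were read by 27 of the 45037 probe sets of the array other than controls, every one of which names only the gene in question, and they stand among 18193 genes named by such probe sets. Male C57BL/6J mice received from 6 weeks of age, for 15 weeks, a control diet with 10% of energy from fat (D12450B, Control), a high-fat diet with 60% of energy from fat (D12492, HF), or that high-fat diet with 0.023% by weight of sodium ferrous citrate, an oral iron compound (HF+SFC). Both base diets already contained iron, and the livers were collected after a short fast. The material of all mice of a group was mixed and put on 1 array, so that 3 arrays and no replicates were at hand. The labels give an age of 21 months, which does not match the feeding times and was not used. No test between groups was possible, no p-value is given, and each difference below is one between 2 pools.

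Secreted and membrane proteins are folded in the ER with the help of chaperones, and hepatocytes, which export most plasma proteins, hold a great deal of this compartment. When unfolded proteins build up, the sensors ATF6, IRE1α (encoded by Ern1) and PERK (encoded by Eif2ak3) start the unfolded protein response (UPR). ATF6 is cut in the Golgi and its fragment enters the nucleus, IRE1α splices the Xbp1 mRNA into the form that encodes the active factor, and PERK slows translation while that of ATF4 goes on. These factors induce chaperones, degradation factors and, with lasting stress, Ddit3 (CHOP) and Trib3. An array measures the abundance of transcripts only, so that neither cleavage of ATF6, splicing of Xbp1 nor phosphorylation of PERK and its target eIF2α was measured.

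Values are MAS5 signals, the intensities of Affymetrix probe sets on a linear scale, which the authors had scaled to one target per array. Each gene was read mainly by its brightest probe set, that is, the one of highest mean log2 signal over the 3 arrays, and differences are given as log2 ratios of 2 signals, where 0.58 is a 1.5-fold difference, the fold used in the study. A probe set was kept if its geometric mean signal lay in the upper 50%, at 76.9 or more, which left 11341 genes to set the 10 against. All 10 genes and 24 of their 27 probe sets were kept. In place of replicate error, the SD of log2 ratios between kept probe sets of the same gene was 0.35 for HF over Control, 0.33 for HF+SFC over HF and 0.36 for HF+SFC over Control, over 5020 genes, and 0.20, 0.17 and 0.20 in the upper 25% of signal. Log2 signals of kept probe sets correlated at 0.967 to 0.983 between arrays. The 10 hepatocyte markers matched on the array were all kept, and Alb, the serum albumin gene, had signals of 54077, 50644 and 52202 in Control, HF and HF+SFC. The ratio of the 3′ to the 5′ probe set of Actb, a sign of RNA integrity, was 1.84, 1.65 and 1.73 in the same order. That of Gapdh was 0.708, 0.680 and 0.708, and that of the pyruvate carboxylase control 4.28, 3.23 and 3.89, with the largest gap between Control and HF. The part of RNA quality in the results was not tested.

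In HF the 10 genes, taken as a set, were not higher than in Control. Of the 10, 8 were below 0 in HF over Control and 2 above, and the median log2 ratio was -0.17, where it was 0.03 over all kept genes and -0.01 over the 6834 in the upper 25% of signal. Below 0 were 46.9% of all kept genes and 51.3% of those in the upper 25%. None of the 10 was at least 1.5-fold higher, a call made for 11.3% of all kept genes, and 1, Dnajb9, was at least 1.5-fold lower, against 5.84% of all. In the upper 25% of signal, where 8 of the 10 lie, these shares were 6.50% and 4.14%. Of the calls over all kept genes 65.9% were higher ones, and 50.7% when arrays were centred on their medians. None of the 10 differed by 2-fold, which 3.45% of all genes did upward and 1.69% downward. A single gene among 10 lies near the background share, so that what the set shows is a median slightly below 0 rather than calls.

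**Figure D1:**
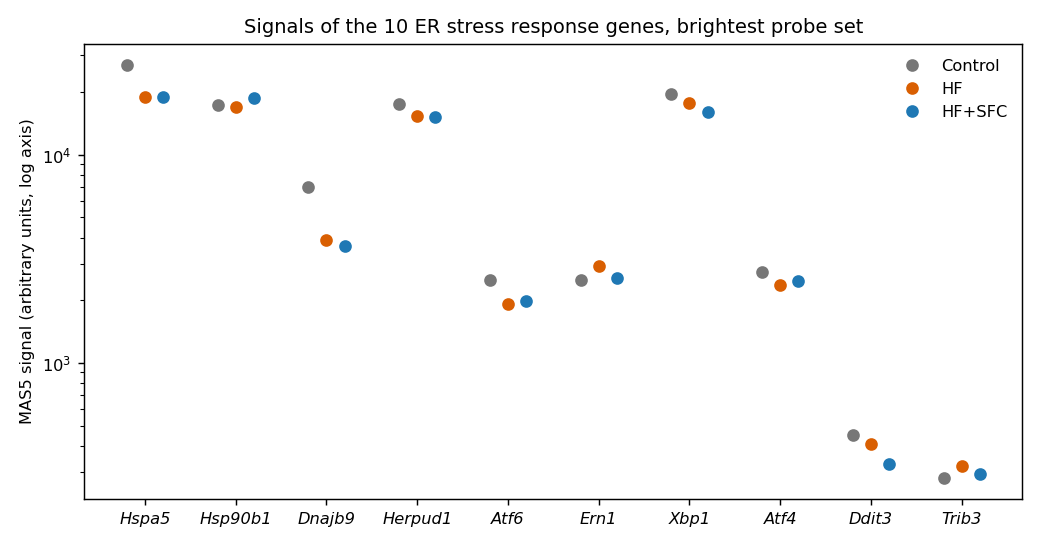
MAS5 signal (y axis, arbitrary units, log axis) of each of the 10 genes by its brightest probe set on the Control (grey), HF (orange) and HF+SFC (blue) arrays, 1 pool each. Points are to be compared within a gene, not between genes. Hspa5 and Dnajb9 lie lower on both high-fat arrays than on the Control array.

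Hspa5 encodes BiP, the main chaperone of the ER lumen, which also binds the UPR sensors and keeps them inactive. Its brightest probe set (1416064_a_at) had a signal of 27029 in Control, against 18915 in HF and 18871 in HF+SFC. The 2 high-fat arrays were nearly level, and both lay below Control by 1.43-fold. A second probe set read 17083, 11268 and 11167, a 1.52-fold lower signal in HF, and another, dimmer one read 1330, 1126 and 1168. The 3 log2 ratios of HF over Control were thus -0.51, -0.60 and -0.24, all of one sign, and only the middle one of them passed 1.5-fold. Of all kept genes, 7.61% had a lower log2 ratio than Hspa5.

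Dnajb9 encodes ERdj4, a co-chaperone that brings BiP to misfolded proteins and to IRE1α, and it is a classical target of XBP1. Its only probe set (1417191_at) read 6992 in Control, against 3897 in HF and 3654 in HF+SFC. It was 1.79-fold lower in HF and 1.91-fold lower in HF+SFC than in Control, and no second probe set was there to compare. Its log2 ratio of -0.84 in HF over Control was the lowest of the 10, with 2.55% of all kept genes below it.

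Hsp90b1, which encodes GRP94, an ER paralog of the cytosolic HSP90 chaperones, was nearly level between Control and HF by its brightest probe set. Signals of its brightest probe set (1415889_a_at) were 17378, 16911 and 18610 in Control, HF and HF+SFC. HF over Control stood at -0.04 and its other probe set at -0.15, and the sign of the first turned under quantile and lowess scaling, at 0.06 and 0.05. Herpud1, a membrane protein that assembles the machinery of ER-associated degradation, read 17465, 15386 and 15163 by its brightest probe set (1448185_at) and 14110, 14891 and 14359 by the other. The log2 ratios of HF over Control, -0.18 and 0.08, differed in sign, so that no direction can be given for Herpud1.

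The promoters of these 4 genes are shown because BiP, GRP94 and HERP are known to be induced through related sequence elements. The log2 ratios of their brightest probe sets in HF over Control ran from -0.84 (Dnajb9) to -0.04 (Hsp90b1). Sequences are the 250 bases before the annotated start, 5′ to 3′ on the strand of the gene, from RefSeq on build GRCm38.p6, where 9 of the 10 genes had a window. Capitals mark matches, on either strand, to the ER stress element (ERSE, CCAAT and CCACG with any 9 bases between them), to its variant ERSE-II (ATTGG and CCACG with any 1 base between them), to the core of the UPR element (UPRE, TGACGTGG) or to the composite C/EBP-ATF element that ATF4 binds (TGATGNAA). None of these overlapped another in the sequences shown.

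Hspa5, chr2:34771840-34772089, plus strand: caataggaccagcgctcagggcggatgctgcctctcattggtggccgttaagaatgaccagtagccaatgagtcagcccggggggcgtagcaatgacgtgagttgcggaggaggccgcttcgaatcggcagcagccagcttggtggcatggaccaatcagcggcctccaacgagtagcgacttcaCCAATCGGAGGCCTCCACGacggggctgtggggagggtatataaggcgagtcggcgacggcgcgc

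Dnajb9, chr12:44210069-44210318, minus strand: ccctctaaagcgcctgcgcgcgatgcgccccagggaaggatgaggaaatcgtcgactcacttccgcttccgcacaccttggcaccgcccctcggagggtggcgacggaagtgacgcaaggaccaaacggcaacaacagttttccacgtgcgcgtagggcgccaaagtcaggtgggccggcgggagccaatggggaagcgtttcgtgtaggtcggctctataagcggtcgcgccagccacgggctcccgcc

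Hsp90b1, chr10:86705445-86705694, minus strand: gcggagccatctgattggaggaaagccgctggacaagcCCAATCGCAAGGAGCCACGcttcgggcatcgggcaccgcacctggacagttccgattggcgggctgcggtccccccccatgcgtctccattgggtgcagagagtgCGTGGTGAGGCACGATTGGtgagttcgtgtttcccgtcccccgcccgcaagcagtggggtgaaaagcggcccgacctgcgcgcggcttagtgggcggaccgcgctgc

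Herpud1, chr8:94386179-94386428, plus strand: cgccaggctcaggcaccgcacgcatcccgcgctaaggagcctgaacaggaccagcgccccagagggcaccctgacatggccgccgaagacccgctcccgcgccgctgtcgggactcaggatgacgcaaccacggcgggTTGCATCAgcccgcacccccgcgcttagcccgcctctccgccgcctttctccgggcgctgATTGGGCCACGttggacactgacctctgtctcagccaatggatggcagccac

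Hspa5 held 1 ERSE match, 65 to 47 bases before the start, and Hsp90b1 held 2, at 212 to 194 and, on the other strand, 107 to 89 bases before it. Herpud1 held an ERSE-II match at 52 to 42 bases and a C/EBP-ATF match at 112 to 105 bases before the start. Dnajb9, the lowest gene, had none of the 4 motifs in this window, and neither had Atf4, Ddit3, Ern1, Trib3 and Xbp1. ERSE matches occurred in 0.113% of all 32851 windows, ERSE-II in 0.0304%, the UPRE core in 0.563% and the C/EBP-ATF element in 3.45%. A match describes letters and not a bound site. By their brightest probe sets the 2 genes with an ERSE stood at -0.51 (Hspa5) and -0.04 (Hsp90b1) in HF over Control. Their other probe sets stood at -0.60 and -0.24 for Hspa5 and at -0.15 for Hsp90b1. Whether the 2 genes differ was not tested, since the SD between probe sets of one gene is no error for a difference between genes.

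Among all genes, 15 kept ones had an ERSE match, 2 of the 10 and 8 from other ER lists. In HF over Control 11 of the 15 were below 0, 2 passed 1.5-fold downward and 0 upward, with a median of -0.15. Of the 9208 kept genes with any window, 47.3% were below 0, 5.52% passed 1.5-fold downward and 11.1% upward, with a median of 0.02. The lower ones were Creld2 at -1.28 and Ero1b at -0.66. In HF+SFC over HF the 15 had a median of 0.05 and 6 were below 0. Of the 88 kept genes with a UPRE core 47.7% were below 0 in HF over Control (median 0.01), and of the 229 with a C/EBP-ATF element 45.0% (median 0.03), both close to the share over all windows.

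Of the sensors, Atf6, whose cleaved product induces ER chaperones, had signals of 2490 (Control), 1915 (HF) and 1979 (HF+SFC) by its brightest probe set (1435444_at). This is 1.30-fold lower in HF, but its other kept probe sets read 790, 797 and 746, and 181, 197 and 294. Their log2 ratios of 0.01 and 0.12 did not share the direction, and the median over the 3 probe sets was 0.01. No direction in HF can therefore be given for Atf6. Ern1, the gene of IRE1α, was the gene with the widest disagreement. Its brightest probe set (1437119_at) had signals of 2509, 2933 and 2561 in Control, HF and HF+SFC, a log2 ratio of 0.23 in HF over Control. The 2 probe sets designed on the RefSeq mRNA were much dimmer and read 193, 79.3 and 83.3, and 116, 72.4 and 84.9, that is, -1.29 and -0.69. A further one read 189, 172 and 257, at -0.14. The median over the 4 kept probe sets was -0.41, opposite in sign to the brightest. A probe set below the kept level read 2.69, 26.0 and 19.1, too dim for a fold.

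**Figure D2:**
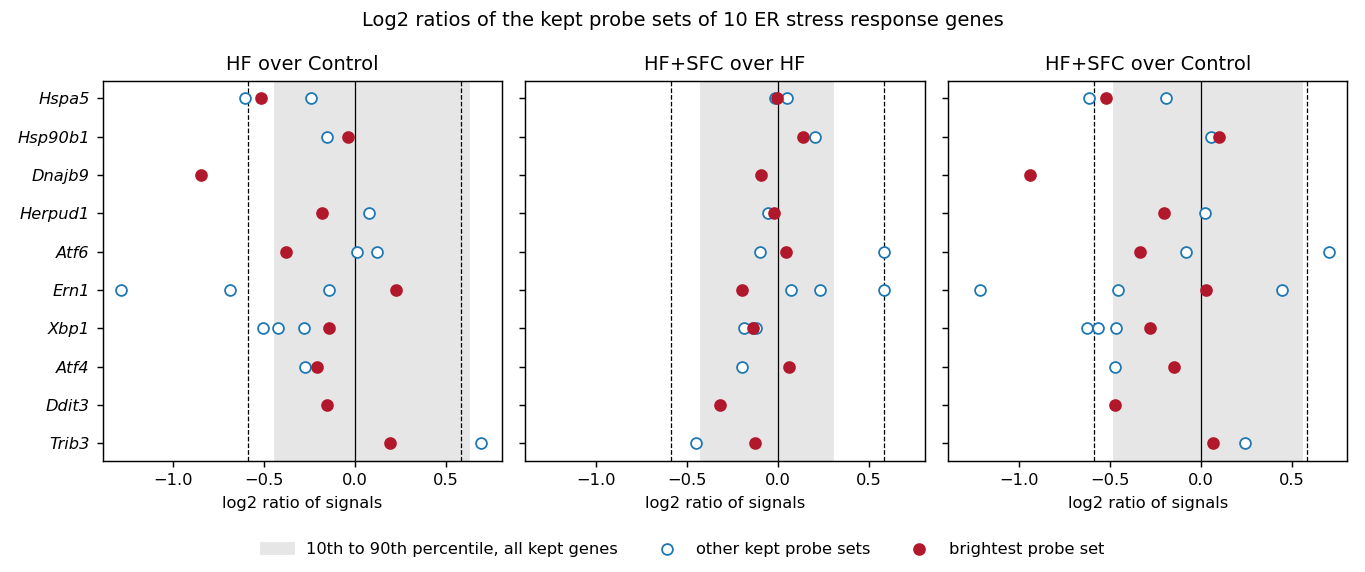
Log2 ratio (x axis) of each kept probe set of the 10 genes for the 3 comparisons, each of 1 array over 1 array. Filled points are the brightest probe sets, open points the others, dashed lines 1.5-fold and the grey band the 10th to 90th percentile of all 11341 kept genes. In HF over Control every kept probe set of Hspa5, Hsp90b1, Dnajb9, Xbp1, Atf4 and Ddit3 lies left of 0, whereas those of Ern1 run from -1.29 to 0.23.

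Xbp1, the transcription factor downstream of IRE1α, was read by 4 kept probe sets. The brightest (1437223_s_at) had signals of 19499 (Control), 17677 (HF) and 16090 (HF+SFC). The other ones read 12504, 9324 and 8474, then 5567, 4594 and 4038, and 1224, 863 and 795. All 4 were highest in Control and lowest in HF+SFC, with log2 ratios of HF over Control from -0.50 to -0.14. The brightest probe set gave the smallest difference, 1.10-fold lower in HF, and the others 1.21-fold to 1.42-fold, so that none reached 1.5-fold. The probe sets were not used to tell spliced from unspliced Xbp1.

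Atf4, the factor translated when eIF2α is phosphorylated, had signals of 2747, 2379 and 2486 by its brightest probe set (1448135_at) and 1367, 1129 and 985 by the other kept one. Both were lower in HF than in Control, by 0.21 and 0.28 on the log2 scale, close to the SD between bright probe sets. Ddit3 encodes CHOP, a factor tied to cell death under lasting ER stress. It read 452, 406 and 326 (1417516_at), in descending order from Control to HF+SFC, with HF over Control at -0.15. A second Ddit3 probe set, just below the kept level with a geometric mean of 74.8, read 97.8, 104 and 41.2. Trib3 is a pseudokinase induced by ATF4 and CHOP that binds AKT. By brightest probe sets it was the only gene besides Ern1 above 0 in HF over Control. Its probe sets read 280, 319 and 293 (1426065_a_at), and 231, 374 and 274, at 0.19 and 0.69. The dimmer of the pair passed 1.5-fold and the brighter did not.

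In HF+SFC over HF, the comparison that shows the liver with iron added to the high-fat diet, the 10 genes lay close to 0. Their median log2 ratio was -0.06, and -0.01 over all kept genes, with 7 of the 10 below 0 and all between -0.32 and 0.14. None of the 10 was at least 1.5-fold higher, against 2.88% of all kept genes, and none at least 1.5-fold lower, against 5.33%. In the upper 25% of signal, where 8 of the 10 lie, these shares were only 0.571% and 1.11%. The absence of calls among the 10 is therefore near what bright genes showed. At 2-fold, where 0.767% of all genes were higher and 1.19% lower, none of the 10 passed. Of the calls over all genes 35.1% were higher ones, but 49.8% under quantile, 49.3% under lowess and 57.4% under median scaling. Median centring moved the median of all genes from -0.01 to 0.11 and that of the 10 to 0.06, which is still below it.

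The chaperone gene Hspa5, the co-chaperone gene Dnajb9 and Herpud1 lay close to 0 in this comparison. Hspa5 stood at -0.01, 0.00 and 0.05 by its 3 probe sets, Dnajb9 at -0.09 and Herpud1 at -0.05 and -0.02, and the brightest probe sets of these 3 genes turned positive under median centring. Hsp90b1 was highest at 0.14 and 0.21. Xbp1 was lower by all 4 probe sets, from -0.19 to -0.12, but the brightest stood at -0.02 under median centring. Ddit3 was lowest at -0.32, 1.24-fold lower, and its dim probe set stood at -1.34. Atf4 had probe sets of both signs, at 0.06 and -0.20, as had Atf6 between -0.10 and 0.58 and Ern1 between -0.20 and 0.58. Trib3 stood at -0.13 and -0.45. Since the HF array is shared by this comparison and the one with Control, opposite signs of a gene in these comparisons, as for Trib3 and the brightest probe set of Ern1, are not independent of each other.

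**Figure D3:**
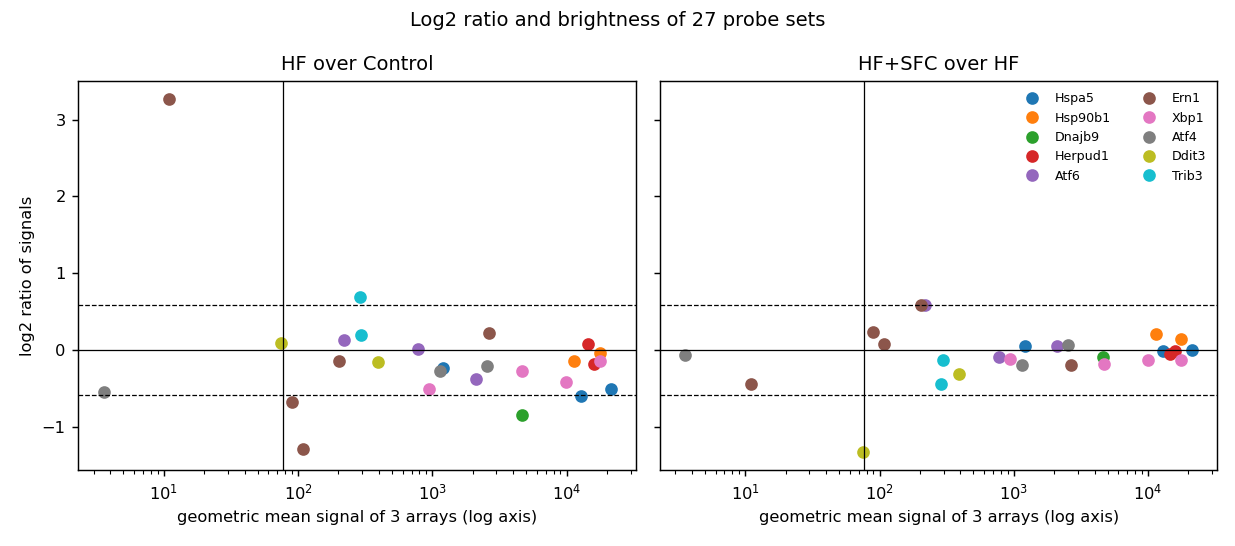
The 27 probe sets of the 10 genes by their brightness, as mean signal of the 3 pools (x axis, log axis), and their log2 ratio (y axis), with HF over Control in the left panel and HF+SFC over HF in the right one. The 1.5-fold limits are dashed, and a vertical line stands at 76.9, the kept level. The widest ratios belong to dim probe sets, such as that of Ern1 with signals of 2.69 in Control and 26.0 in HF.

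Against Control, HF+SFC showed a similar picture to HF, with 7 of the 10 below 0, a median of -0.24 where all kept genes had 0.02, and 47.9% of all genes below 0. Dnajb9 was again the only one at least 1.5-fold lower, a call made for 6.88% of all genes, and none was at least 1.5-fold higher, against 9.20%. In the upper 25% of signal these shares were 4.48% and 6.00%. No gene of the 10 reached 2-fold, as 2.81% of all genes did upward and 1.83% downward. Hspa5 stood at -0.52, Ddit3 at -0.47 and Xbp1 at -0.28 by their brightest probe sets. The other Xbp1 probe sets lay between -0.62 and -0.46. Hsp90b1 stood at 0.10 and 0.06. The probe sets of Atf6 (-0.33, -0.08 and 0.71) and of Ern1 (0.03, 0.45, -1.21 and -0.45) disagreed in sign, so that neither had a direction here. This comparison shares its Control array with HF over Control, so that it does not repeat that result independently.

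The wider pathway was read through 7 further lists of ER genes with 104 kept genes. In HF over Control 72 of them were below 0, with a median of -0.12 that was also below 0 under the 3 other scalings. A signal higher by 1.5-fold or more was seen for 6 (5.77%, against 11.3% of all kept genes) and one lower by as much for 8 (7.69%, against 5.84%). In HF+SFC over HF 51 of 104 were below 0, 2 passed 1.5-fold upward and 3 downward, against 2.88% and 5.33% of all kept genes. Their median of 0.01 turned to -0.01 under both quantile and lowess scaling and to 0.13, with 21 of 104 below 0, under median centring. By list, the medians of HF over Control were -0.18 for chaperones and co-chaperones (11 of 15 below 0), -0.17 for disulfide isomerases and oxidases (11 of 12), -0.25 for ER-associated degradation (15 of 17), -0.14 for sensors, proteases and their regulators (9 of 15), and -0.12 for translocation and signal peptide processing (13 of 17). By brightest probe sets none of these 5 lists held a gene at least 1.5-fold higher in HF. Dimmer kept probe sets of Nck1 (1.32), Sec11c (0.76) and Ero1b (0.73) passed it upward, and those of other genes downward. In HF+SFC over HF the medians were, in the same order, 0.08 (4 of 15 below 0), 0.02 (5 of 12), -0.01 (9 of 17), -0.04 (10 of 15) and 0.03 (8 of 17).

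Among chaperones and cofactors, Creld2, a secreted ER stress protein, read 3342, 1380 and 1934 in Control, HF and HF+SFC. It was 2.42-fold lower in HF than in Control and 1.40-fold higher in HF+SFC than in HF. Manf, an ER-resident survival factor, read 5960, 3820 and 3475, 1.56-fold lower in HF. Both were lower on each high-fat array than on the Control array, as Dnajb9 and Hspa5 were, and each had a single kept probe set. Dnajc10, a reductase of the ER, went the other way with 886, 1246 and 1297, at 0.49, and Dnajb11, a BiP co-chaperone, stood at -0.29. Calr (calreticulin) stood at 0.05, Canx (calnexin) at -0.09 and P4hb (protein disulfide isomerase) at 0.03, whereas Pdia6 was at -0.24 and Ppib at -0.18.

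Of the oxidases, Ero1b, which reoxidises disulfide isomerases, read 4400, 2788 and 3119, 1.58-fold lower in HF, although its 3 probe sets ran from -0.93 to 0.73. Pdia5 stood at -0.43, Erp44 at -0.34 (its other probe set at 0.12) and Qsox1 at -0.27. In ER-associated degradation no gene passed 1.5-fold in HF by its brightest probe set. Of all kept genes 11.3% did so upward and 5.84% downward. Syvn1, the ubiquitin ligase HRD1, read 2976, 2185 and 1934, at -0.45, and Selenos stood at -0.44. In HF+SFC over HF the ubiquitin-binding Faf2 was lower, at -0.54, and Derl3 higher, at 0.42, both inside 1.5-fold. Of 17 translocation genes only 1 was at least 1.5-fold lower in HF by its brightest probe set, near the 5.84% of all kept genes. This was Spcs2, a signal peptidase subunit. It read 4602, 2801 and 3469, and its other probe set stood at -0.38. Ssr4 at -0.38, Ssr2 at -0.31 and Sec61a1, the channel subunit, at -0.30 followed.

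Of the sensors outside the 10, Eif2ak3 (PERK) read 634, 750 and 737, at 0.24 in HF over Control. Creb3l3, a liver factor that is cut in the Golgi like ATF6, read 13369, 8860 and 9664, 1.51-fold lower in HF, a fold that no gene of its list reached under quantile or lowess scaling. Ppp1r15a (GADD34), which reverses eIF2α phosphorylation, read 485, 393 and 292 and was at -0.30 in HF over Control and -0.43 in HF+SFC over HF. Its signals descended from Control to HF+SFC, as those of Ddit3 did. Traf2, an adaptor of IRE1α, stood at -0.53 in HF+SFC over HF, and Atf6b at 0.40, where it was 0.23 in HF over Control. Genes of the eIF2 kinases and eIF2 and eIF2B subunits had a median of -0.04 in HF over Control, with 5 of 10 below 0. Of these 10, 1 was at least 1.5-fold higher, near the share of 11.3% of all kept genes. It was Eif2ak4 (GCN2), the sensor of amino acid shortage, whose only kept probe set read 135, 252 and 176, at 0.90. Eif2b5 stood at -0.24, while the probe sets of Eif2ak2 (PKR) and of Eif2s2 disagreed in sign.

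Targets of ATF4 and CHOP were read by 18 kept genes. In HF over Control 5 passed 1.5-fold upward and 3 downward, where 11.3% and 5.84% of all kept genes did, with a median of 0.18. In HF+SFC over HF 2 passed upward and 3 downward, against 2.88% and 5.33% of all, and the 3 became 2 under each of the other scalings. The 3 were Phgdh, Vldlr and Stc2 by their brightest probe sets. Another kept probe set of Phgdh stood at 0.90 in this comparison, and one of Vldlr at 0.08. The hormone gene Fgf21 read 1381, 397 and 365, 3.48-fold lower in HF, and Atf5, an ATF4-related factor, read 12658, 7518 and 7892, at -0.75. Vldlr, a lipoprotein receptor, read 118, 427 and 279, at 1.86 and 0.84 by its 2 probe sets. The serine synthesis gene Phgdh read 69.5, 221 and 68.5, but its probe sets ran from -0.53 to 1.67, and the amino acid transporter Slc7a5 read 87.3, 47.0 and 126. Both are near the kept level of 76.9. Also at least 1.5-fold higher in HF were Stc2, Atf3 and Ddit4. Stc2, near that level too, read 79.1, 169 and 79.9, at 1.09 and 0.78 by its 2 probe sets. Atf3 read 99.8, 173 and 147, at 0.79, and Ddit4 638, 980 and 916, at 0.62. Asns (asparagine synthetase), a standard readout of ATF4, read 121, 118 and 215, level in HF over Control (-0.04) and at 0.87 in HF+SFC over HF, while Chac1 stood at 0.29 and 0.09.

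**Figure D4:**
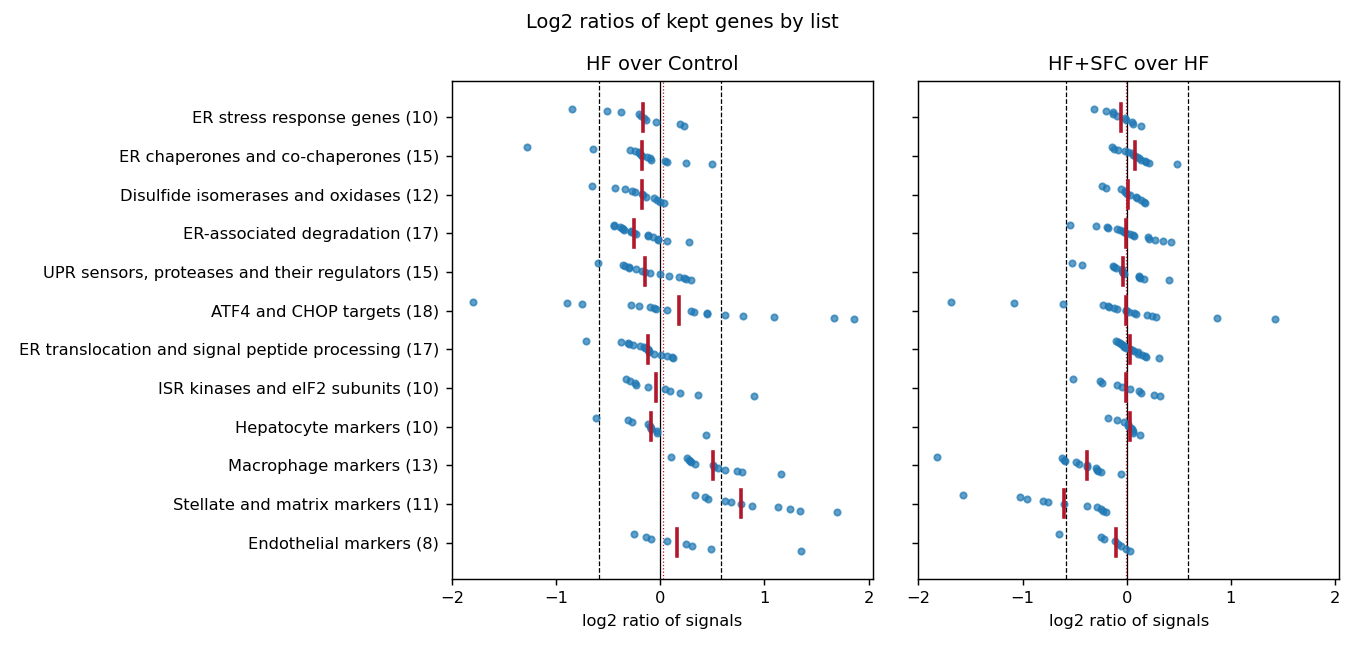
Log2 ratio (x axis) of each kept gene, by list with the number of kept genes beside its name, in HF over Control (left panel) and in HF+SFC over HF (right panel). A point is 1 gene, a red bar the median of a list, the dashed lines are 1.5-fold and the dotted line is the median of all kept genes. In HF over Control the lists of chaperones, oxidases, degradation, sensors and translocation have medians between -0.25 and -0.12, and macrophage and stellate cell markers lie to the right.

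Markers of other liver cells differed as well. By brightest probe sets, 13 of 13 macrophage markers and 11 of 11 stellate cell and matrix markers were above 0 in HF over Control. Their medians were 0.50 and 0.78. In HF+SFC over HF 13 of 13 and 11 of 11 were below 0, with medians of -0.38 and -0.60. The 13 became 12 under each of the other scalings. Another kept probe set of Pdgfrb went the other way in both comparisons, at -1.88 and 2.11, and one of Ccr2 at -0.08 and 0.18. Summed signals of the macrophage list were 21789, 28894 and 21691 in Control, HF and HF+SFC. Those of the stellate cell and matrix list were 14875, 23490 and 17443. Endothelial markers had medians of 0.16 and -0.10 in these comparisons. Of the B and plasma cell markers 7 of 10 lay below the kept level, of those of T and NK cells 6 of 8, and of cholangiocytes 2 of 5. Hepatocyte markers were below 0 in 9 of 10 in HF over Control, with a median of -0.09 that turned to 0.02 and 0.04 under quantile and lowess scaling. The median of the 10 ER stress genes was -0.14 in both. Their bright members moved upward too, such as Hspa5 from -0.51 to -0.39 and -0.41 and Xbp1 from -0.14 to -0.06 and -0.05. The dimmer Ddit3 and Trib3 moved downward. Hnf4a, a regulator of hepatocyte identity, read 15524, 10144 and 11107 by its brightest probe set, at -0.61 in HF over Control. Its 4 kept probe sets ran from -0.61 to -0.24, and no hepatocyte marker passed 1.5-fold downward under quantile or lowess scaling. Ass1, the hepatocyte marker above 0, stood at 0.44. In whole liver, fewer hepatocytes and less RNA of a gene per hepatocyte cannot be told apart, and the part of these markers in the results was not tested.

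Core clock genes also differed between Control and both high-fat pools. By brightest probe sets Dbp read 1406, 5398 and 6891, Per3 99.6, 387 and 449, and Arntl 494, 163 and 228. The other kept Arntl probe set stood at 0.33 in HF over Control, against -1.60 for the brightest, so that no direction can be given for Arntl. Of 11 kept clock genes 4 passed 1.5-fold upward and 3 downward in HF over Control, where 11.3% and 5.84% of all kept genes did. None differed by 1.5-fold in HF+SFC over HF, against 2.88% and 5.33% of all. In that comparison 1 passed upward under median centring, and a dimmer Per3 probe set stood at 0.70. The part of the clock genes in the ER results was not tested.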

How the data were processed

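Liver RNA pools of 3 groups, 1 array each, were measured on Affymetrix GeneChip arrays of the whole mouse genome. The values deposited by the authors are MAS5 signal intensities, scaled by them to one target. No version of MAS5 was found in the sources used here. After trimming 2% at each end, the mean signal of every array came to 500.004. The number of arrays limits the precision. Gene names came from the annotation of the platform (34945 with 1 gene, 932 with several, 9160 not listed, 64 controls left out), and 34741 of the first were found in the RefSeq table of GRCm38.p6. The 10 genes and the other lists were chosen with earlier results of these data known. Named genes were the 10 and, of each of 7 other ER lists, the 4 kept genes with the largest log2 ratio in size in either HF comparison. Calr, Canx, P4hb, Pdia6, Ppib, Eif2ak3, Atf5, Asns, Chac1, Hnf4a, Alb and the clock genes Dbp, Per3 and Arntl were added by name after their values were seen. Atf3, Ddit4, Stc2, Nck1, Sec11c, Ass1, Pdgfrb and Ccr2 were added in the same way. Log2 ratios were computed with Python 3.11.15 and pandas 2.3.3, lowess (fraction 0.3) with statsmodels 0.14.6, and the steps were tested on simulated data. Alternatives were quantile, median and lowess scaling, no filter or the upper 25% of signal, a floor at each array's median, a pseudocount of 16, the median over probe sets, leaving out probe sets by suffix, and a 2-fold threshold. Some listed genes are not reported here.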

Additional observations from a re-analysis of the deposited data

How the results depend on the processing

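Of 10 alternatives, 3 (no filter, the upper 25% of signal and a floor) cannot move the ratio of a bright probe set. Of 201 log2 ratios of the 10 genes under the other 7, 197 moved by less than the SD between probe sets of one gene, and 10 changed sign, none of them beyond 1.5-fold. Many of the 201 could hardly move. Leaving out suffixes could change only Xbp1 among the genes left. The median over probe sets could not move Dnajb9 and Ddit3, with 1 kept probe set each, and the pseudocount is small beside bright signals. The SD used was that over all kept genes, 0.33 to 0.36, and not the smaller one of bright genes. The larger moves came with the median over probe sets (Atf6 at 0.01 and Ern1 at -0.41 in HF over Control, Ern1 at 0.15 in HF+SFC over HF) and, for Xbp1 in HF over Control, with leaving out probe sets of the suffixes _s_at, _x_at and _a_at (-0.50). The number of genes at least 1.5-fold lower in HF over Control was 2 under median centring, where Hspa5 joined Dnajb9, and in HF+SFC over Control 2 without those suffixes, where Xbp1 joined. At 2-fold it was 0 in both. The median in HF over Control stayed between -0.26 and -0.14. Over all 10 genes that in HF+SFC over Control lay between -0.27 and -0.19, and over the 7 genes left without those suffixes at -0.33. In HF+SFC over HF it reversed to 0.0606 under median centring, where the median of all genes was 0.11, and otherwise lay between -0.07 and -0.05 over 10 genes, at -0.01 over the 8 in the upper 25% of signal and at -0.09 over the 7. Leaving out only the suffixes _s_at and _x_at was chosen after seeing the data and changed no count. No paired analysis was possible because each group has 1 array. Low signal over background limits the dim probe sets of Ddit3, Trib3, Ern1 and Atf6.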
